A study of Cynodon dactylon with 10 samples.

Results

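The contigs described here are those of bermudagrass leaves whose level rose under submergence and under heat while it stayed near the control under drought and under salt. They number 76 of the 28456 assembled contigs in the deposited table. Bermudagrass (Cynodon dactylon) is a warm-season perennial grass used for turf and forage. Leaves of wild-type seedlings were sampled in 5 groups of 2 libraries each, 10 libraries in all. Seedlings were 3 weeks old when treatment began. The control was left unstressed, and each of the other groups was held for 7 days under 1 stress, namely drought by withholding water, salt at 400 mM NaCl, submergence under water, or heat at 42 °C. All groups share the genotype and the tissue. The labels do not say that replicate libraries stem from different plants, so the spread on which every p-value below rests may be technical.

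Submergence cuts a leaf off from oxygen and light, and plants are known to answer with fermentation enzymes, with the use of stored sugars and with ethylene signalling. Heat unfolds proteins and loosens membranes, and plants are known to answer with heat shock factors and the chaperones they switch on. In Arabidopsis, some heat shock proteins are also induced by low oxygen, which is one known link between the 2 responses. The deposited identifiers are assembly numbers with no gene names, so no contig here can be tied to any of these pathways, and leaf marker genes could not be checked. At most 4 contigs are given by identifier, and the others are described by rank, range and count.

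The contigs were chosen by their values, so the levels against the control are a description with no test. Levels are in RPKM, read density per contig length and library size, and a stress was set against the control as the log2 ratio of the 2 group means after adding 1 RPKM to each. The mean in the control had to be at least 1 and under 500 RPKM, which 23976 contigs met. The ratio had to be at least 1.5 under submergence and under heat, and under 0.5 in size under drought and under salt. Total RPKM per library ran from 751923 to 795078, and 23755 to 25948 contigs reached 1 RPKM. Absolute read depth is unknown, but low values move in steps of 1 read, and by those steps depth ran from 0.791 (heat replicate 2) to 1.01 (submergence replicate 1) times that of control replicate 1.

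Contigs that rose under both stresses and stayed level under the other 2 were a small share of those that rose under both. In the control range, 1472 contigs met the limit for submergence, 1875 met it for heat, and 564 met both. Of these 564, drought also raised 222 by at least 1.5 and another 237 by 0.5 to 1.5, so that 92 stayed within 0.5 of the control under drought. Under salt, 342 were within 0.5, 204 were raised by 0.5 to 1.5 and 10 by at least 1.5. Over the control range, 3.70% rose by at least 1.5 under drought and 0.304% under salt. The interquartile range of the ratio there was also wider under drought, at -0.36 to 0.44, than under salt, at -0.10 to 0.22. The drought and salt limits together left the 76 contigs, 13.5% of the 564. The median log2 ratio of the 564 was 1.16 under drought and 0.39 under salt. Drought was thus the limit that most of the 564 failed: 254 were within 0.5 under salt and at or above 0.5 under drought, against 12 the other way round.

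**Figure D1:**
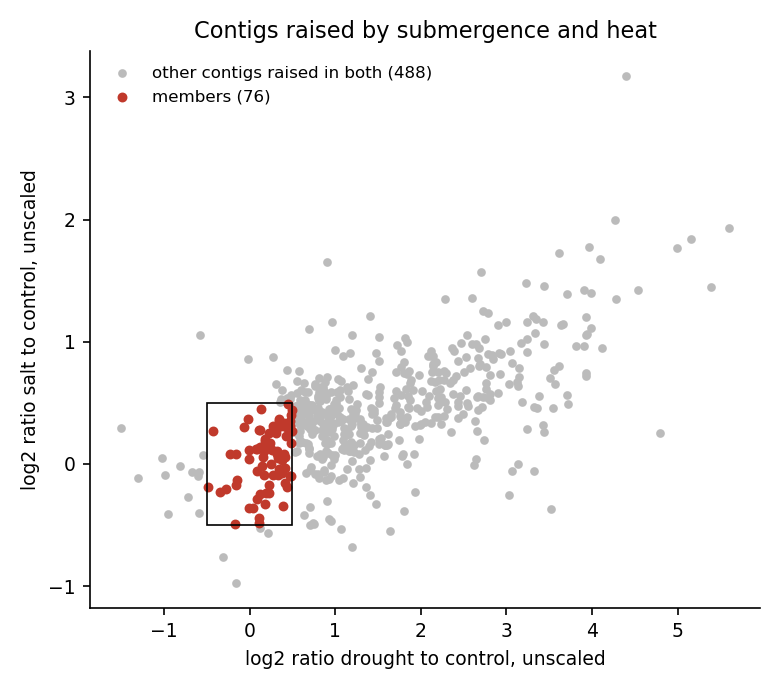
Log2 ratio to control under drought (x axis) and under salt (y axis), unscaled, for the 564 contigs raised by at least 1.5 under submergence and under heat. The square marks the limit of 0.5 and holds the 76 contigs described here, while most of the 488 grey points lie to its right, at higher drought values.

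The 76 contigs were mostly of low abundance in unstressed leaves. Their median level was 4.47 and 4.63 RPKM in the 2 control libraries. It was 5.79 and 5.56 under drought and 5.41 and 5.02 under salt. Under submergence it was 23.3 and 24.2 RPKM, and under heat 20.8 and 19.95. The 6 control, drought and salt libraries thus lay close together and the 4 submergence and heat libraries far above them. In the control, 40 of the 76 contigs (52.6%) were under 5 RPKM, against 25.4% of all contigs in the control range and 51.1% of the 564 raised by both stresses. Together the 76 held 0.108% ± 0.000853 of a library's RPKM without stress, 0.130% ± 0.000645 under drought, 0.113% ± 0.000295 under salt, 0.511% ± 0.00815 in submerged leaves and 0.495% ± 0.00326 in heated ones (SD, n = 2 each). The sum did not rest on the most abundant contig alone: without it the share was 0.0817% in the control, 0.419% under submergence and 0.404% under heat.

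The rises were of like size under both stresses. The log2 ratio to the control had a median of 1.97 under submergence, with an interquartile range of 1.65 to 2.44, and of 2.06 under heat, with one of 1.67 to 2.43. The largest values were 5.61 under submergence and 3.25 under heat. The 5.61 was in a contig at 2.24 and 0 RPKM in the 2 control libraries, and the next largest submergence ratio was 3.86. A ratio of at least 3 was seen for 10 contigs under submergence and for 3 under heat, and 25 contigs had at least 2 under both. All 4 submergence and heat libraries lay above all 6 other libraries for 76 of the 76 contigs, which the limits on the group means favour. In the contig with the narrowest gap, the lowest of the 4 was 1.97 times the highest of the 6.

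Within the limit of 0.5, the contigs leaned upward under drought and less so under salt. The median log2 ratio was 0.23 under drought, against 0.07 over the control range, and 62 of 76 contigs (81.6%) were above 0, against 55.0% of the control range. Under salt the median was 0.08, against 0.06, and 46 contigs (60.5%) were above 0, against 60.4% of the control range. Both drought libraries lay above both control libraries for 50 of the 76 contigs, a larger share than the 46.1% of the control range. They lay below them for 7 of the 76, a smaller share than 36.6%, and the groups overlapped for 19. Both salt libraries lay above both control libraries for 34 of the 76, against 41.6% of the control range, and below them for 17, against 23.3%. For salt the shares were thus near the background. Salt was below drought in 52 of the 76, with a median difference of -0.11, against -0.003 over the control range. Both salt libraries lay below both drought libraries for 38 of the 76, a larger share than the 40.0% of the control range. They lay above them for 8 of the 76, a smaller share than 39.1%. These values were bounded by the choice of contigs and were not tested.

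**Figure D2:**
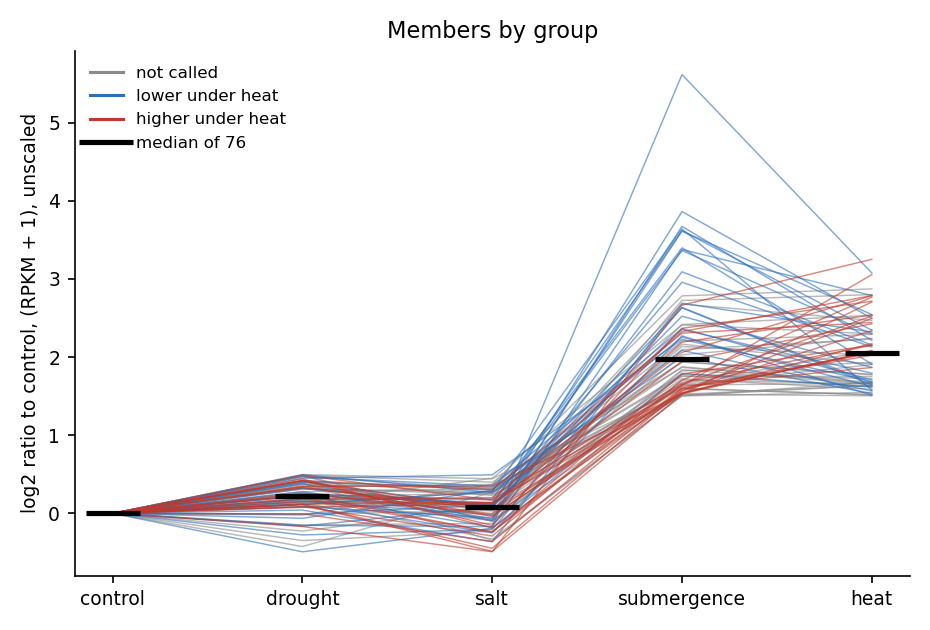
Log2 ratio to control of the 76 contigs in each group, on the log2(RPKM + 1) scale without scaling, with 1 line per contig coloured by the direct test between heat and submergence and black bars for the median. The lines run flat from control to salt, with medians of 0.23 and 0.08, and rise to medians of 1.97 and 2.06 under submergence and heat.

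How far the set depends on its limits can be read from its edges. Within 0.1 of a limit lay 14 contigs for submergence, 9 for heat, 17 for drought and 6 for salt, and 44 contigs were clear of every limit by more than that. Just outside, 13 contigs missed the submergence limit alone by under 0.1, 16 the heat limit, 24 the drought limit and 9 the salt limit. The member nearest the submergence limit had a ratio of 1.501, and the contig nearest to it on the other side had 1.492. The values used are as deposited. Scaling the libraries by a trimmed mean of log ratios lowers every ratio, by 0.27 for submergence, 0.24 for heat and 0.08 for drought and salt, before the added 1 RPKM. On scaled values 47 contigs met the same limits, 35 of them among the 76. None of the 76 then fell below a ratio of 1.248 under either stress, and the medians were 1.74 under submergence, 1.85 under heat, 0.17 under drought and 0.03 under salt.

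Contigs were also chosen in the libraries of 1 replicate number and read in those of the other. The limits themselves were set with earlier results of these data known. The labels do not say that replicates stem from different plants, so the second reading may be a repeat measurement only. On the means of both replicates, 2.35% of the control range had both rises. The limits applied to the replicate 1 libraries alone selected 84 contigs, and in the replicate 2 libraries 43 of these met every limit. Of the 84, 65 kept a ratio of at least 1.5 under both stresses in the replicate 2 libraries, where the medians were 2.06 under submergence and 2.02 under heat, and the lowest values were 1.05 and 0.91. Drought and salt were both within 0.5 there for 56 of the 84, with medians of 0.23 and 0.10. Selection in the replicate 2 libraries gave 76 contigs, of which 60 kept both rises and 57 kept both flat values in the replicate 1 libraries. The medians there were 2.05 under submergence, 2.02 under heat, 0.21 under drought and 0.13 under salt, and the lowest values were 0.54 under submergence and 1.11 under heat. The medians in the libraries that made the choice were 2.01 under submergence and 1.92 under heat for replicate 1, and 2.05 and 1.92 for replicate 2, so the medians were close while single contigs fell well below the limit.

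Heat and submergence were then compared directly. The choice of contigs set no order between them, but it used the same libraries and asked for a ratio of at least 1.5 under both. The counts and p-values of this contrast are therefore not independent of the choice. Limma was fitted to log2(scaled RPKM + 1) of the 26884 contigs that reached 1 RPKM in 2 or more libraries, which all 76 did, and p-values were adjusted over all of these by the Benjamini-Hochberg method. Heat gave the higher level for 22 of the 76 contigs at an adjusted p under 0.05 (28.9%), against a background of 35.4% of all contigs tested. Heat gave the lower level for 23 (30.3%), against a background of 40.9%. The other 31 did not pass the test. The median difference, heat minus submergence in log2, was -0.01 over the 76 and -0.06 over all contigs tested, and the single values ran from -2.50 to 1.45. Of the 488 other contigs raised by both stresses, 194 (39.8%) were higher and 181 (37.1%) lower under heat. Whether the lower share of calls among the 76 differs from theirs was not tested.

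Few of the 76 differed at least 2-fold between the stresses. At that size, 3 contigs (3.95%) were higher under heat, against a background of 13.8%, and 8 (10.5%) were lower under heat, against 18.4%. The choice asked for a rise under both stresses, while the background also holds contigs that rose under 1 stress only. Shares below this background are therefore favoured by the choice and are no result about the 76. In the deposited values, both heat libraries were above both submergence libraries for 30 of the 76, a share close to the background of 40.2% of contigs. They were below them for 34 of the 76, a somewhat smaller share than 48.1%, and the 2 groups overlapped for 12. Of the 10 contigs with a submergence ratio of at least 3, 10 were lower under heat, and of the 3 with a heat ratio of at least 3, 2 were higher and 1 lower under heat. Contigs picked by a high ratio under 1 stress lean to that stress by construction. The 22 contigs higher under heat had a median ratio of 2.43 under heat and 1.64 under submergence. The 23 that were lower under heat had 1.87 under heat and 2.69 under submergence. The balance of 22 to 23 rested on the unscaled choice of contigs: among the 47 contigs that met the limits on scaled values, 7 were higher and 22 lower under heat. Of the 22 contigs higher under heat, 7 met the scaled limits, and 14 had a scaled submergence ratio under 1.5. Of the 23 lower under heat, 15 met them, and 8 had a scaled heat ratio under 1.5. The 12 contigs that met the limits only on scaled values added 0 higher and 7 lower.

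**Figure D3:**
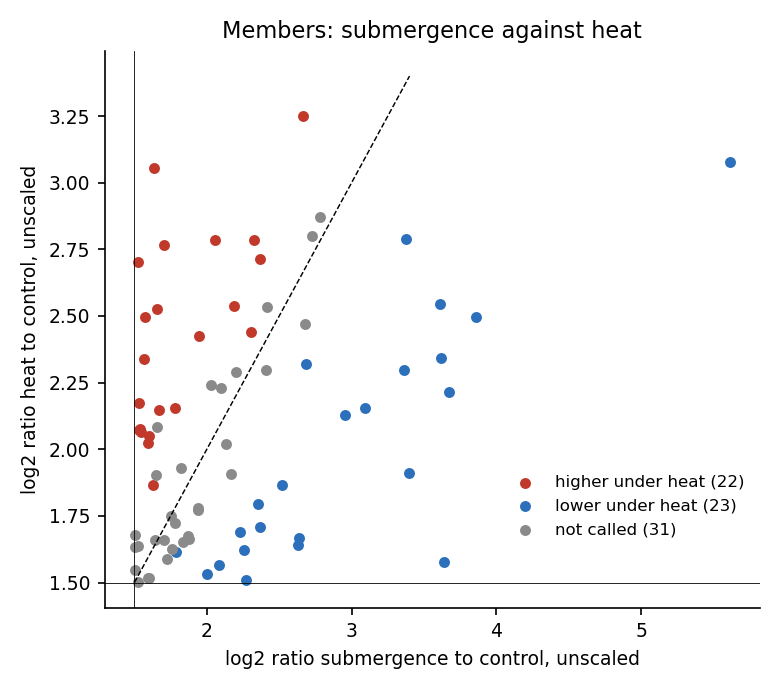
Log2 ratio to control under submergence (x axis) and under heat (y axis) for the 76 contigs, unscaled, coloured by the direct limma test between the stresses. Thin lines mark the limit of 1.5 and the dashed line equal ratios: 22 contigs were higher under heat, 23 lower and 31 not called.

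The order of the 2 stresses was looked at by abundance in the control. The median control mean was 6.75 RPKM for the 22 contigs higher under heat, 5.37 for the 23 lower and 3.36 for the 31 not called. Among the 18 contigs with a control mean of 1 to 2 RPKM, 3 were higher and 4 lower under heat, with a median difference of -0.04. Among the 22 with 2 to 5 RPKM, 5 were higher and 5 lower, with a median near 0 (-0.0029). Among the 16 with 5 to 10 RPKM, 4 were higher and 9 lower, with a median of -0.46. Among the 11 with 10 to 20 RPKM, 5 were higher and 4 lower, with a median of 0.07, and among the 9 with 20 RPKM or more, 5 were higher and 1 lower, with a median of 0.40. Over all bins the median did not move steadily: it was lowest at 5 to 10 RPKM and highest at 20 RPKM or more. The bins are small, no trend was tested, and the background was 35.4% higher and 40.9% lower. Of the 18 with 1 to 2 RPKM, 11 were not called. The median SE of the 18 was 0.13, against 0.04 for the 9 most abundant. The SE pools the spread of all 5 groups, so in low contigs it includes scatter of low control, drought and salt values. The members took up 1.25% of all contigs with a control mean of 1 to 2 RPKM and 0.135% of those with 20 RPKM or more.

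The 2 contigs with the largest difference in favour of heat were comp60393_c4_seq2 and comp60752_c1_seq9. The level of comp60393_c4_seq2 was 26.2 and 27.8 RPKM in the control libraries, 34.6 and 34.6 under drought, 25.6 and 26.9 under salt, 88.4 and 83.3 under submergence, and 229.13 and 233.76 under heat. Salt overlapped the control, drought lay somewhat above it, and heat stood well above submergence. Its group means were 27.0 ± 1.10 RPKM in the control, 85.8 ± 3.66 when submerged and 231 ± 3.27 when heated (SD, n = 2 each). The difference of heat minus submergence was 1.45 in log2 with an SE of 0.04 (limma, adjusted p = 1.08e-08). The contig shares its assembly subcomponent, the part of an identifier before its last number, with 1 other contig, which had 13.6 and 11.1 RPKM without stress, 10.8 and 10.5 under drought, 14.8 and 13.1 under salt, 23.5 and 28.5 under submergence and 49.9 and 43.7 under heat. Control, submergence and heat stood in the same order in both contigs, while drought lay above the control in the first and below it in the second.

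The level of comp60752_c1_seq9 was 11.5 and 13.5 RPKM in the unstressed libraries, 13.8 and 13.4 under drought, 8.44 and 8.81 under salt, 37.87 and 37.89 under submergence, and 84.9 and 89.0 under heat. Salt lay below the control in both libraries, with a log2 ratio of -0.49, close to the limit. The difference of heat minus submergence was 1.20 with an SE of 0.07 (limma, adjusted p = 7.58e-07). Its subcomponent holds 3 contigs, 2 of them among the 76. The one outside the 76 had 54.6 and 54.3 RPKM without stress, 45.7 and 49.7 under drought, 48.45 and 48.6 under salt, 87.98 and 87.85 under submergence, and 81.4 and 78.7 under heat. Both stresses lay above the control there too, but heat lay below submergence, the opposite order to the named contig. The third positive contig in rank, from another subcomponent, had 18.005 ± 1.44 RPKM in the control, 60.9 ± 1.12 when submerged and 128 ± 3.96 when heated (SD, n = 2 each). Heat exceeded submergence in it by 1.09 in log2.

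The 2 contigs with the largest difference in favour of submergence were comp54846_c3_seq18 and comp58523_c1_seq4. The level of comp54846_c3_seq18 was 2.24 RPKM and 0 in the control libraries, 0.98 and 0.83 under drought, 1.77 and 0 under salt, 98.9 and 106.67 under submergence, and 17.0 and 16.8 under heat. It was the only one of the 76 listed at 0 in any library, and its control and salt libraries differed widely while the submergence and heat libraries agreed closely. The difference of heat minus submergence was -2.50 with an SE of 0.59 (limma, adjusted p = 0.00466), and with 0.1 RPKM added in place of 1 it was -2.57 with an adjusted p of 0.183. Both fits pool the spread of all 5 groups, so the SE includes the scatter of the control and salt libraries. Fitted to the submergence and heat libraries alone, the difference was -2.51 with an SE of 0.05 (limma, adjusted p = 1.62e-06). Its subcomponent holds 12 contigs, among which reads may be split. Summed over the other contigs of the subcomponent, the level was 139.62 and 139.2 RPKM without stress, 244.42 and 256.19 under drought, 166.16 and 174.17 under salt, 1364 and 1296 under submergence and 481.67 and 482 under heat. The sum put submergence far above heat and heat above the control, as the single contig did, and it also put drought above the control.

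The level of comp58523_c1_seq4 was 2.87 and 3.24 RPKM without stress, 3.87 and 2.92 under drought, 4.29 and 3.55 under salt, 48.9 and 50.2 under submergence, and 11.4 and 10.8 under heat. Drought overlapped the control, and submergence stood above heat by a log2 difference of 2.03, so that heat minus submergence was -2.03 with an SE of 0.13 (limma, adjusted p = 1.17e-06). The other contigs of its subcomponent, which holds 6, behaved unlike it. Their summed level was 87.9 and 83.5 RPKM without stress, 791.46 and 724.92 under drought, 175.89 and 176.31 under salt, 98.5 and 101.44 under submergence, and 219.83 and 218.99 under heat. The sum was highest under drought and barely above the control under submergence, while the single contig was flat under drought and highest under submergence. The description of this contig as level under drought therefore does not extend to its subcomponent.

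**Figure D4:**
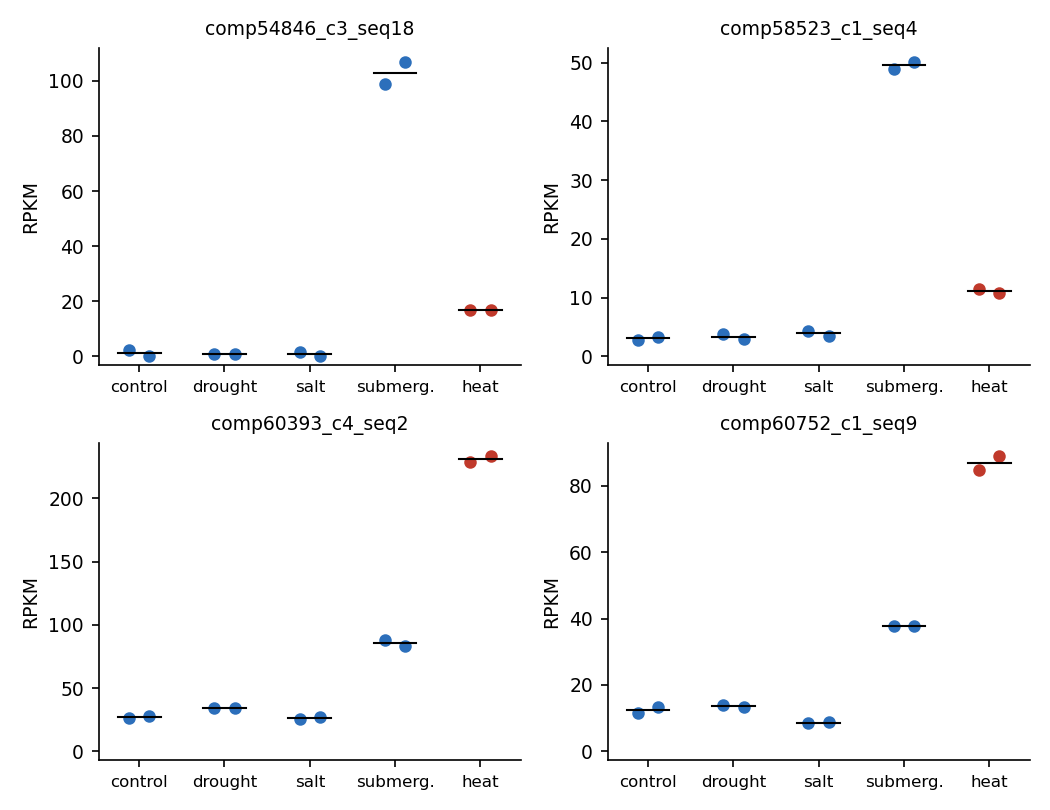
Level in RPKM of the 4 named contigs in each of the 10 libraries, with 1 point per library, a bar for the mean of each group and a linear axis of its own in each panel. The upper or lower place of heat against submergence sets the panels apart: heat reached 229.13 and 233.76 RPKM in comp60393_c4_seq2, and submergence 98.9 and 106.67 RPKM in comp54846_c3_seq18.

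Other contigs at the ends of the set are described by their levels. The contig most abundant in the control had 203.04 and 205.25 RPKM there, 229.77 and 233 under drought, 225.65 and 220.01 under salt, 674.68 and 705.77 under submergence and 694.26 and 684.67 under heat. Submergence and heat overlapped, and their difference of 0.03 had an SE of 0.03 (limma, adjusted p = 0.414). The next most abundant contig had 69.1 ± 0.389 RPKM without stress, 97.8 ± 0.474 under drought and 94.2 ± 3.80 under salt, both close to the limit, and 211 ± 4.603 when submerged and 199 ± 6.99 when heated (SD, n = 2 each). The largest rise under heat, a log2 ratio of 3.25, was in a contig at 2.09 and 1.52 RPKM in the control that reached 24.8 and 26.6 under heat and 16.0 and 17.6 under submergence. A contig with a steep rise under both stresses went from 8.25 and 9.30 RPKM in the control to 98.1 and 102.71 under submergence and 68.05 and 64.9 under heat, while drought gave 10.4 and 10.5 and salt 7.78 and 7.52. Of the 76, 11 reached a mean of at least 100 RPKM under submergence and 9 under heat.

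Contigs of 1 subcomponent may be variants or fragments of 1 transcript and are not independent. The 76 contigs fell into 64 subcomponents, of which 6 held 2 of them and 3 held 3. In 4 of these 9 subcomponents all members were lower under heat than under submergence, in 2 all were higher, and in 1 none was called. The other 2 mixed called and uncalled members, and none of the 9 held members called in both directions. In 8 of the 9 the differences had 1 sign throughout. In 1 subcomponent with 3 members, the differences ran from -0.95 to -0.80, and in another with 2 members from -1.45 to -1.24. Counting 1 contig per subcomponent, a choice made after the data were seen, left 19 higher and 17 lower under heat.

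**Figure D5:**
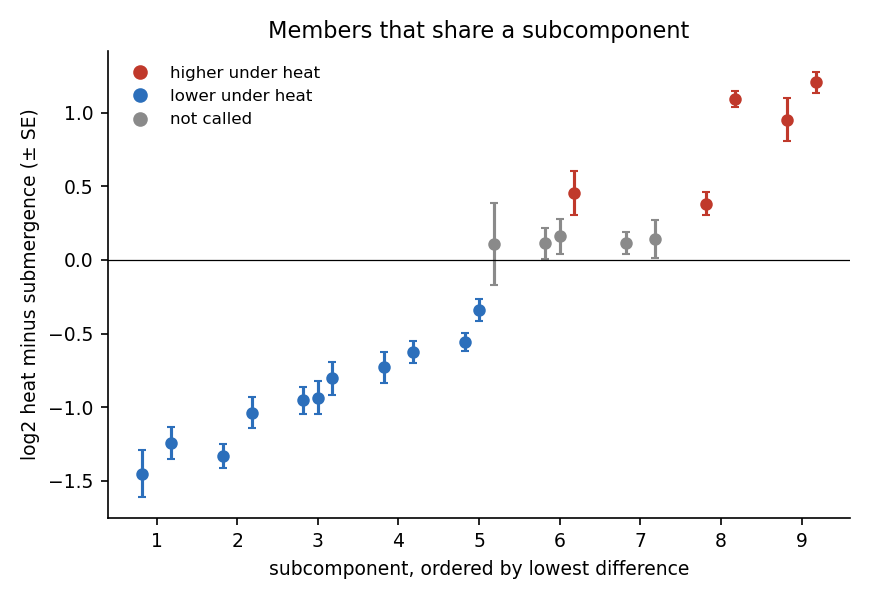
Log2 difference of heat minus submergence with its SE for the 21 contigs that share a subcomponent with another of the 76, grouped by the 9 subcomponents. Points of 1 subcomponent lie on 1 side of 0 in 8 of the 9, and no subcomponent holds members called in both directions. Contigs outside the 76 are not shown.

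Other contigs share a subcomponent with the 76 without being among them, and are called relatives here. Of the 76, 46 (60.5%) shared a subcomponent with any other contig, against 52.9% of the control range, and 39 had relatives, since for the other 7 all such contigs were among the 76. There were 93 relatives, 86 of them in the control range, and their median log2 ratio was 1.43 under submergence, 1.25 under heat, 0.14 under drought and -0.01 under salt. The median over the control range was 0.25, 0.19, 0.07 and 0.06 in the same order. A ratio of at least 1.5 under both stresses was met by 26 of the 86 (30.2%), against 2.35% of the control range, and both ratios were above 0 for 69 (80.2%), against 45.05%. Under drought, 39 of the 86 were within 0.5 of the control and 12 (13.95%) rose by at least 1.5, against 3.70% of the control range. Under salt, 71 were within 0.5 and 0 rose by that much, against 0.304%. Reads may be split between relatives, so they are no independent sample.

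Summing RPKM over all contigs of a subcomponent gave a coarser view of the 34 subcomponents with several contigs. The sum was higher than in the control under both stresses for 32 of the 34, and by a log2 ratio of at least 1.5 under both for 19. Drought and salt were both within 0.5 for 23, and 11 met all 4 limits as a sum. The medians of the sums were 1.93 under submergence, 1.73 under heat, 0.18 under drought and 0.02 under salt. The 30 contigs alone in their subcomponent had medians of 1.81 under submergence, 1.76 under heat, 0.32 under drought and 0.13 under salt. Of these 30, 8 were higher and 5 lower under heat, and 17 were not called, against 14, 18 and 14 of the 46 that shared a subcomponent. The background over all contigs tested was 35.4% higher and 40.9% lower.

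A further 3 sets, chosen by the same limits, were placed beside the 76, with no test since their values chose them. Heat alone raised 101 contigs and submergence alone 112, while 73 rose under drought, submergence and heat but not salt. The 76 had a median control level of 4.598 RPKM, close to the 4.87 of the contigs raised by submergence alone and the 5.38 of those raised by 3 stresses, and below the 7.03 of those raised by heat alone. Their median submergence ratio of 1.97 compares with 1.85 for those raised by submergence alone, and their median heat ratio of 2.06 with 1.77 for those raised by heat alone. In the contigs raised by 3 stresses these medians were 2.36 and 2.76. Drought ratios were above 0 in 81.6% of the 76 and 79.2% of those raised by heat alone, against 40.2% of those raised by submergence alone. Each comparison shares the 2 control libraries.

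Replicates differed little beside these changes. Over the 76, the median absolute log2 ratio between the 2 libraries of a group was 0.104 for the control and for drought, 0.0982 for salt, 0.0708 for submergence and 0.0691 for heat. The largest was 1.70 in the control and 1.47 under salt, against 0.408 under drought, 0.301 under submergence and 0.469 under heat. In whole leaves, more RNA per cell and a change in the mix of cells cannot be told apart.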

How the data were processed

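Per the file headers, the deposited values are RPKM made by the authors, in 1 column for each of the 10 libraries. Tools named in the submitters' processing notes, with no role stated, are DESeq 1.18.0, HTSeq 0.6.1, TopHat2 2.0.12 and Bowtie2 2.2.3. The assembly of the contigs is not given in the sources used here. Although its name speaks of read counts, the table holds decimals, so a linear model replaced any count model.

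The contigs, limits and comparisons were chosen with earlier results of these data known. The named contigs are the 2 called with the largest difference in each direction between heat and submergence. No identifier could be matched to a gene, so no gene list was used. For the test, libraries were brought to a common scale by trimmed mean log ratios (trimming 30% of ratios and 5% of levels at each end), and contigs had to reach 1 RPKM in 2 or more libraries. Limma 3.58.1 (R 4.3.3) with a variance trend was fitted with group as the only term and 5 residual degrees of freedom, two-sided. It was first run on simulated data in which few contigs changed. That run says little about a contrast in which most contigs are called. The log2(RPKM + 1) scale understates changes of low contigs. Descriptions used Python 3.11.15 with pandas 2.3.3 and numpy 2.4.6, and figures matplotlib 3.10.9. Relative depth is the most frequent ratio between low values of a pair of libraries. Counting subcomponents, and testing the contigs chosen on scaled values, were added after seeing the data.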

Additional observations from a re-analysis of the deposited data

How the results depend on the processing

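The number of contigs chosen followed the limits: it was 47 on scaled values, 409 with a rise of at least 1, 25 with a rise of at least 2, 25 with drought and salt within 0.25, and 239 with both within 1. Leaving out each library in turn gave 72 to 79, of which 58 to 74 were among the 76. Counting subcomponents gave 64. The counts of contigs higher and lower under heat than under submergence, 22 and 23, became 3 and 8 at 2-fold, and 7 and 22 among the contigs chosen on scaled values. With each library left out in turn they ran from 18 to 23 and from 21 to 24. The replicate block gave 22 and 23. Whether the replicate numbers pair the samples is not known. Of 10 pairs of groups, 1 had a correlation of replicate differences over 0.1, and the values ran from -0.05 to 0.12. Of the named contigs, comp54846_c3_seq18 lost its call with a pseudocount of 0.1 RPKM, at -2.57 and an adjusted p of 0.183, and its adjusted p ran from 1.62e-06 to 0.183 over the 20 alternatives; the other 3 kept their direction and call in all 20. Absolute depth is unknown, so no counting interval is given. The contigs at 1 to 2 RPKM in the control are the least certain.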
